A study of Mus musculus with 2 samples.

Results

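B cells make up much of the white pulp of the spleen. They carry an immunoglobulin on their surface as antigen receptor, with Cd79a and Cd79b as its signaling chains and Ms4a1 (CD20) as a neighboring membrane protein. Follicular B cells carry both IgM and IgD, B cell precursors use surrogate light chain genes such as Vpreb1 and Igll1 before a light chain gene is joined, and antibody-secreting cells fill with immunoglobulin mRNA and the joining chain Jchain. Each of these stages can be read from its transcripts.

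The B cells compared here were 968 of the 9591 barcodes in 1 droplet library, and of the 14421 barcodes in both libraries of the study. A barcode was taken as a B cell when it held at least 3 UMIs (unique molecular identifiers, 1 per captured transcript) over Cd79a, Cd79b and Ms4a1 and none of Cd3d, Cd3e and Cd3g. Of these, 507 came from mice given vehicle and 461 from mice given a low dose of CBL0137, and 382 more from a high dose are set beside them. The mice were female BALB/cAnNCrl, bought at 7 to 8 weeks of age, and all groups bore liver metastases of 4T1, a mouse mammary carcinoma line, seeded through the spleen in a hemisplenectomy. CBL0137, a DNA-binding compound that traps the histone chaperone FACT on chromatin, or vehicle was infused into the hepatic artery, and cells were taken 5 days later. Neither the labels nor the methods tie an amount of drug to the low and high dose groups. Cells of 2 mice were pooled per group, so each group was 1 sample, the mice in it cannot be told apart, and no test could be made between groups. All intervals below are 95% intervals for counting error only, and they say nothing about the spread between mice.

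The groups were told apart by hashtags, antibodies that carry a short oligonucleotide. The 3 barcodes as they were read are shown because every group assignment rests on them.
A0301, vehicle: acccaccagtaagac
A0305, low dose: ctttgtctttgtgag
A0310, high dose: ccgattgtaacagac
A barcode went to the hashtag with the most UMIs when that had at least 10 UMIs and at least 3 times the next. The marker rule alone took 1430 barcodes, of which 80 had no such hashtag. In the library, 71 barcodes without a Cd3 transcript sat at the limit with 3 UMIs over the B cell genes, and 105 sat just below it with 2. The median UMI count per B cell was 3603 in the vehicle group, 3494 at the low dose and 3763 at the high dose, and the summed counts were 2450976, 2613060 and 1924180.

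The library is labelled liver, but its deposited matrix is named for the spleen. It held 0 UMIs of Clec4f, a Kupffer cell gene, and 0 of albumin (Alb), while the library labelled spleen held 4602 and 1157. The 2 libraries shared 15 barcodes, of which 2 were among the B cells of the 3 groups. The methods describe cells isolated on CD11b beads and the labels describe leukocytes. The methods list the barcodes of all 3 hashtags, although they name only A0301 and what may be a shortened A0310 where staining is described. Ighd, the heavy chain of IgD, had a UMI in 400 of 507 vehicle cells and 365 of 461 low dose cells. Pax5, a defining transcription factor of B cells, stood at 266 CPM (UMIs per 1000000 summed UMIs) in the vehicle group and 179 CPM at the low dose, with a UMI in 322 and 251 cells. A list of 8 T cell genes summed to 74 UMIs in the vehicle group and 59 at the low dose (30.2 and 22.6 CPM), with 2 and 1 UMIs of Trac. The rule had already removed barcodes with a Cd3 transcript. Barcodes with at least 2 UMIs over Csf3r, Lyz2, Nkg7, C1qa, C1qb and Trac, defining genes of other leukocytes, numbered 31 in the vehicle group, 26 at the low dose and 8 at the high dose.

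UMIs were summed over the cells of a group, and the low dose was compared with the vehicle over 7609 genes with at least 50 UMIs in both groups together. At the low dose, 322 genes (4.23%) were at least 1.5-fold higher and 569 (7.48%) at least 1.5-fold lower. The median gene had a log2 ratio of -0.09, and centering on that median gave 434 higher and 394 lower genes, which moved the higher share of these genes from 36.1% to 52.4%. Against the same vehicle cells, 155 of 7216 genes (2.15%) were as far above at the high dose and 599 (8.3%) as far below.

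**Figure D1:**
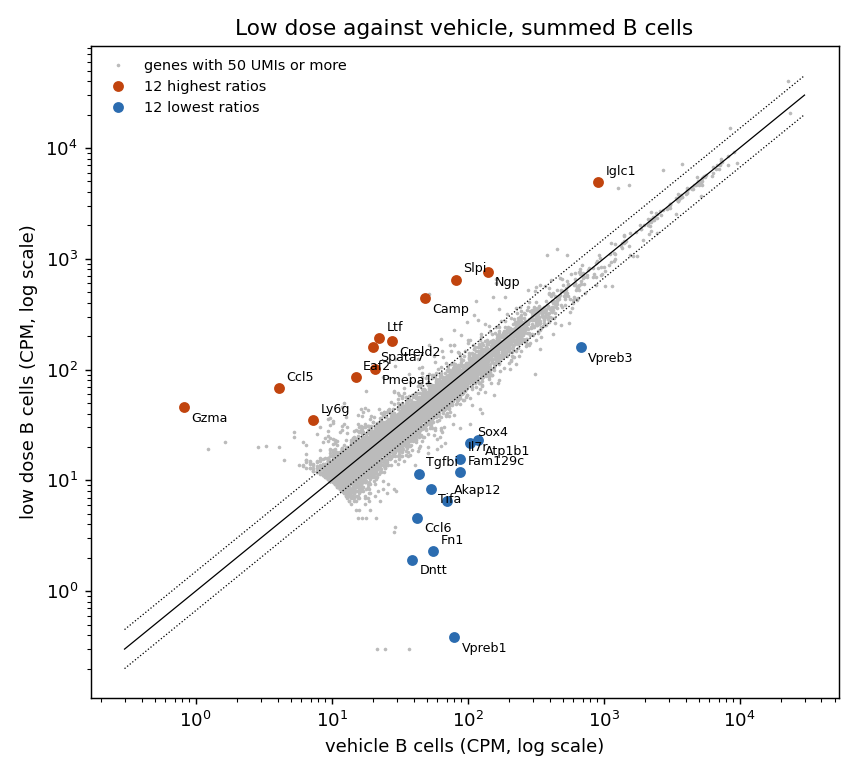
Summed expression of each gene with at least 50 UMIs in vehicle (horizontal) and low dose (vertical) B cells, in CPM on log scales, with genes at 0 drawn at 0.3 CPM. The solid line marks equal values, the dotted lines a 1.5-fold difference, and the colored points the 12 highest and the 12 lowest ratios, which range from Gzma and Ccl5 above the lines to Dntt and Vpreb1 below them.

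Many of the higher genes were held by a handful of cells. For 66 of the 322 higher genes, 3 cells held over 50% of the low dose UMIs, against 178 of all 7609 genes. The median higher gene was found in 0.674 times as many low dose cells as its UMIs would reach if spread in proportion to each cell's depth, and the median gene tested in 0.972 times as many. The 12 genes with the highest ratios among those with at least 100 UMIs were Gzma, Ccl5, Camp, Ltf, Spata7, Slpi, Creld2, Eaf2, Ngp, Iglc1, Pmepa1 and Ly6g. Of these, only Iglc1 and Pmepa1 had a UMI in more than 100 low dose cells, and 3 cells held 11574 of the 12865 Iglc1 UMIs but 22 of the 264 Pmepa1 UMIs.

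Pmepa1, a membrane protein that restrains TGF-beta signaling, had 51 UMIs in 43 vehicle cells, 264 in 127 low dose cells and 72 in 45 high dose cells. This was 20.8, 101 and 37.4 CPM, and the low dose stood 4.86-fold (3.59 to 6.69) above the vehicle. The highest low dose cell held 9 UMIs and the top 3 together 22. To compare cells at 1 depth, each was thinned to 500 UMIs, and the share of cells that keep a UMI was computed over all possible draws. It was 0.920% of vehicle cells, 6.78% of low dose cells and 2.0% of high dose cells. In T cells of the same library, thinned alike, the shares were 1.86%, 2.72% and 2.04%, at median depths of 5101.5, 4904.5 and 5150 UMIs before thinning. Low dose B cells lay above their T cells and high dose B cells at the level of theirs. The vehicle share came from about 5 cells, and its interval (0.321% to 2.29%) held the T cell share of 1.86%. The T cell barcodes also held more neutrophil transcripts than the B cells, and not alike in the 3 groups. Thinned shares of Ngp, a neutrophil granule protein, were 15.3%, 12.4% and 4.80% in vehicle, low dose and high dose T cells. In B cells they were 3.40%, 3.33% and 2.65%.

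Socs3, an inhibitor of JAK/STAT signaling that STAT3 itself induces, was also higher at the low dose, in part in the same cells. It had 58 UMIs in 27 vehicle cells, 226 in 119 low dose cells and 42 in 27 high dose cells, and the low dose stood 3.65-fold (2.73 to 4.97) above the vehicle. Thinned shares were 0.792%, 5.91% and 1.34% in B cells and 5.33%, 8.70% and 6.2% in T cells, so that no group of B cells reached its T cells. The part of the neutrophil transcripts of the T cell barcodes in these shares was not tested. Both genes had a UMI in 4 vehicle, 64 low dose and 5 high dose cells. Pmepa1 was found in 53.8% of the low dose cells with a Socs3 UMI and in 18.4% of the others. Unlike Pmepa1, Socs3 was not among the 12 genes with the highest ratios, and it is described because it went with Pmepa1.

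Cells were then clustered on their expression, with 77 genes kept out of the features, so that the genes first listed for the Pmepa1 cells did not set the clusters (leading genes of a cluster are named, and no cluster was given a cell type). The cluster led by Pmepa1, Socs3, Itgb3, Arap2 and Dusp1 held 6 of 507 vehicle cells, 141 of 461 low dose cells and 29 of 382 high dose cells. These were 1.18% (0.436 to 2.56) of vehicle cells, 30.6% (26.4 to 35.0) of low dose cells and 7.59% (5.14 to 10.7) of high dose cells, by exact Clopper-Pearson intervals. Over 6 other settings of the clustering the low dose share lay between 26.0% and 31.9% and the vehicle share between 0% and 0.986%. In every setting the cluster was the one with the highest level of Pmepa1, a gene picked for its high ratio at the low dose. A cluster rich in low dose cells was thus favored by the choice, and neither the settings nor the intervals test it. The high dose share depended on the features and lay between 1.31% and 7.33%, with 1.57% when all genes were used.

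**Figure D2:**
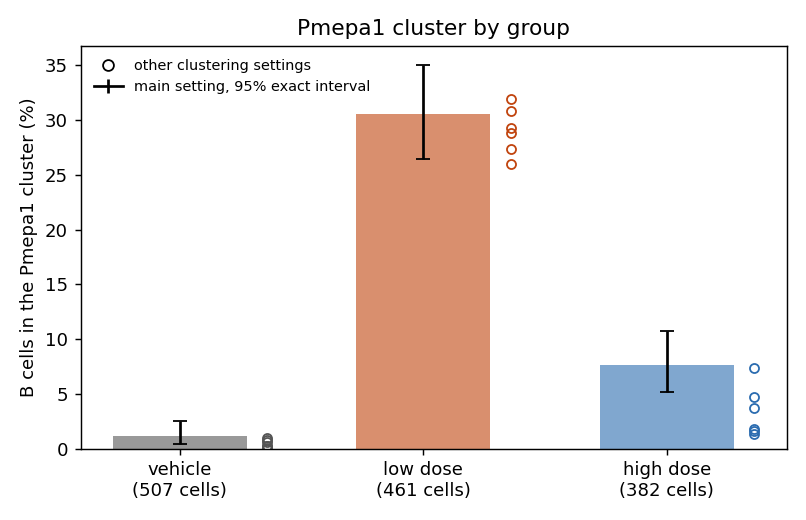
Share of B cells (vertical, percent) of each group in the cluster that had the highest Pmepa1 level in its setting. Bars give the main setting with 95% exact intervals and open circles the 6 other settings, and every low dose circle lies at 26.0% or more while every vehicle circle lies below 1%.

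Several checks were made on the 141 low dose cells, with counts over all 461 low dose B cells in brackets. HTODemux, a separate way of calling hashtags, gave 136 (436) of them the same hashtag. The hashtag was kept in 140 (451) when the largest had to be 5 times the next. At least 6 UMIs over the B cell genes were found in 116 (395), under 10% mitochondrial UMIs in 140 (422), and no transcript of the 8 T cell genes in 128 (411). The hashtag and B cell gene counts use values that had admitted the cells, so they are no separate support for calling them B cells. Only 3 held at least 2 UMIs of the defining genes of other leukocytes. For expression, the 138 cells left without those 3, of which at least 10 held a transcript of a T cell gene, were compared with 232 low dose cells of the larger clusters, a reference chosen after the data were seen. The cluster cells were shallower, with a median of 2844 UMIs against 3771.5, and held a median of 10 against 24 UMIs over the 3 genes of the B cell rule. Their own hashtag (median 856 against 873.5 UMIs) and mitochondrial UMIs (4.23% against 4.21%) were close to those of the reference. Ighd had a UMI in 81.2% of the cluster cells and 88.4% of the reference. The part of depth in the differences below was not tested.

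Since the cells were grouped by expression, differences between the cluster and the reference are a description and carry no test. Of 3864 genes with at least 50 UMIs, 12.9% were at least 1.5-fold higher in the cluster and 15.8% at least 1.5-fold lower. Pmepa1 stood at 422 CPM in the cluster and 45.6 CPM in the reference, and the reference was 0.61 log2 units (-0.01 to 1.22) above 364 vehicle cells of the larger clusters. In the cluster, the reference and those vehicle cells, Socs3 stood at 273, 43.8 and 7.83 CPM, so that it was also 2.48 log2 units higher in the low dose reference than in the vehicle cells, on 47 and 12 UMIs. Genes chosen after their values were seen are given next. Dusp1, a phosphatase that switches off MAP kinases, stood 10.1-fold (6.40 to 16.7) above the reference, Ptpn22, a phosphatase that damps antigen receptor signaling, 6.45-fold (4.98 to 8.42), and Neurl3, a ubiquitin ligase, 4.26-fold (3.37 to 5.39). The reference lay below the vehicle cells for Ptpn22 (75.5 against 164 CPM), and against the vehicle cells the cluster stood at log2 ratios of 2.77 for Dusp1, 1.57 for Ptpn22 and 1.75 for Neurl3. Among 13 NF-kB subunits and feedback genes, 4 were at least 1.5-fold higher in the cluster than in the reference and 6 lower.

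The Socs3 promoter is shown because STAT factors are known to bind such palindromes and because Socs3 went with the cluster. The 250 bases before the RefSeq start lie at chr11:117969367-117969616 on the minus strand of GRCm38.p6, and the capitals mark a match to TTCNNNGAA that ends 145 bases before the start.
Socs3 promoter: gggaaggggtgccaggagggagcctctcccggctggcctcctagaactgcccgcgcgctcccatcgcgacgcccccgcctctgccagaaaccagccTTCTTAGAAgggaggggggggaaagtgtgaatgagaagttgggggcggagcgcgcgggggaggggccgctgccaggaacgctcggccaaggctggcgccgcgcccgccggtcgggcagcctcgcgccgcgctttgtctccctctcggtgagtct
The motif reads the same on both strands, and 7.02% of 32851 such windows hold it, or 8.13% of 27025 genes. Of 20 genes listed as higher in the cluster, 13 had a window and 2 held the motif, Ptpn22 and Socs3. Stat3 itself stood at 142 CPM in the cluster and 82.0 CPM in the reference, 1.73-fold (1.24 to 2.41) higher, while Stat4 stood 6.45-fold (3.75 to 11.5) higher. A match is a stretch of letters and says nothing about binding in these cells.

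The lists of transcription factors and survival genes held more lower than higher genes in the cluster. Over all 3864 genes of this comparison, 12.9% were higher and 15.8% lower, and the higher counts given next lay near that share. Of 18 B cell transcription factors, 2 were higher and 7 lower, of 7 genes of the BCL2 family and survival list 1 was higher and 4 were lower (median log2 ratio -0.88), and of 9 activation and costimulation genes 1 was higher and 5 were lower (median -1.72). The single genes that follow were chosen after their values were seen. Fosl2, an AP-1 subunit, had 28 cells with a UMI among the 138 and 1 among the 232 reference cells. Cebpb stood at 280 and 48.4 CPM, Crem, a cAMP-responsive repressor, at 101 and 20.5 CPM, and Satb1, a chromatin organizer, at 684 and 157 CPM. Of 12 immediate early and AP-1 genes, 4 were higher and 3 lower, with Junb at 3.23-fold (2.63 to 3.99) and Fos and Jun at 0.794-fold (0.361 to 1.62) and 0.721-fold (0.512 to 1.00). Bcl2l11 (BIM), which promotes cell death, was the 1 higher gene of the survival list, at 3.91-fold (2.59 to 5.97), and the costimulatory ligand Cd86 that of the activation list, at 2.73-fold (1.84 to 4.09). Prdm1 (Blimp-1), which drives B cells toward antibody secretion, had a UMI in 17 of the 138 cluster cells, 8 of the 232 reference cells and 1 of the 364 vehicle cells. Apoe, a carrier of cholesterol, stood at 2467 CPM in the cluster, 472 CPM in the reference and 806 CPM in the vehicle cells. The receptor genes Il6ra and Tgfbr2 had ratios of 2.31 (0.430 to 12.4) and 1.17 (0.816 to 1.65), both with intervals that held 1, and Il6st (gp130) stood 5.88-fold (2.84 to 13.1) higher on a level of 60.3 CPM.

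Of 8 follicular B cell genes, 4 were at least 1.5-fold lower in the cluster and 0 higher, where 15.8% of all genes were lower and 12.9% higher. Fcer2a (CD23), a marker of follicular B cells, had a UMI in 4 of the 138 cluster cells and 143 of the 232 reference cells, or 10.8 against 255 CPM. Cr2 (CD21) stood at 90.4 and 517 CPM, Ccr6 at 21.5 and 149 CPM, Cd40 at 21.5 and 110 CPM, and Cd22, an inhibitory co-receptor, at 71.0 and 252 CPM. The phosphatase Ptpn6 (SHP-1) stood at 60.3 and 421 CPM. Pax5 differed less, with a ratio of 0.716 (0.563 to 0.902), and Ccr7, which guides cells into lymph nodes, had a ratio of 1.20 (0.812 to 1.74). Of the 10 genes of the MHC class II list, 8 were at least 1.5-fold lower in the cluster, with H2-Aa at 2320 against 4502 CPM and Cd74, the invariant chain, at 6776 against 12425 CPM. Among 19 B cell receptor signaling genes, 9 were lower and 3 higher. Of 83 cytosolic ribosomal protein genes, 1 was lower and 0 higher.

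**Figure D3:**
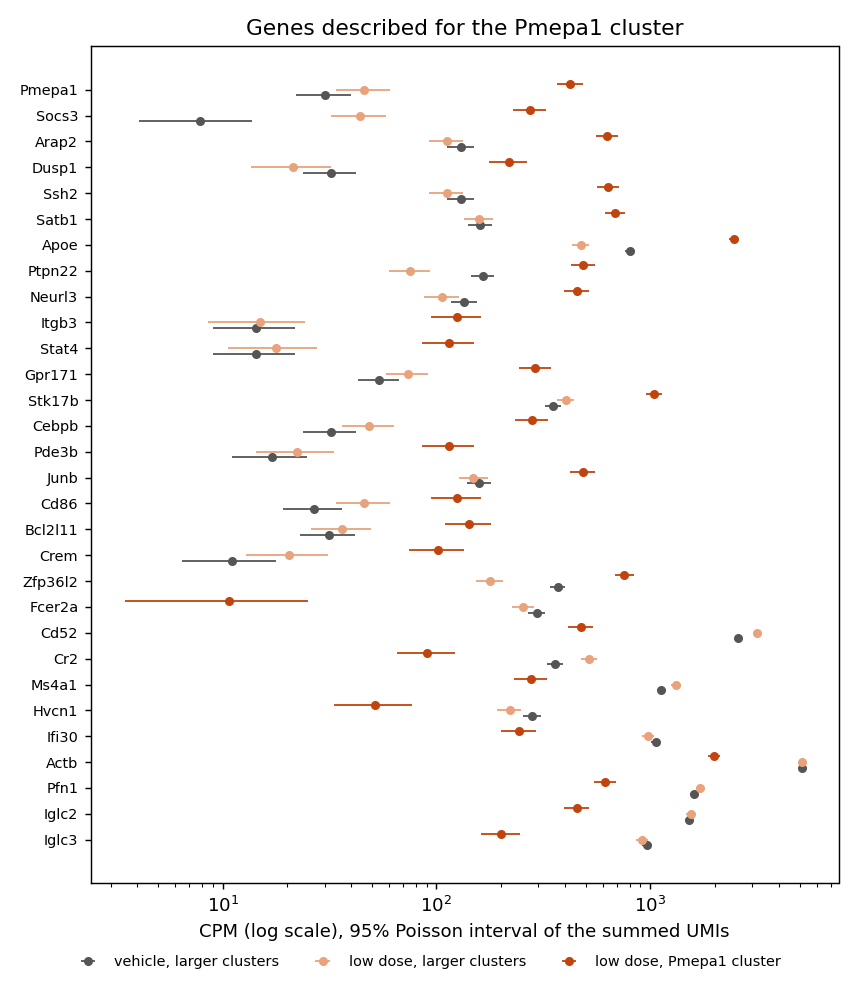
Levels of 30 genes (CPM, log scale) in vehicle cells of the larger clusters, low dose cells of the larger clusters and low dose cells of the Pmepa1 cluster, with 95% Poisson intervals of the summed UMIs. The first 20 genes, from Pmepa1 to Zfp36l2, were listed as high in the cluster and the last 10, from Fcer2a to Iglc3, as low, and the Pmepa1 cluster points stand apart from both other sets of cells.

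Not all of these genes differed between the groups as a whole. Over all low dose B cells, Crem (3.38-fold), Fosl2 (3.17-fold), Stat4 (2.63-fold), Pde3b (2.52-fold), Bcl2l11 (2.15-fold), Itgb3 (2.10-fold), Gpr171 (2.01-fold), Cd86 (1.94-fold), Arap2 (1.77-fold), Satb1 (1.67-fold) and Ssh2 (1.59-fold) passed 1.5-fold. Dusp1 (1.44-fold), Apoe (1.28-fold), Junb (1.16-fold) and Ptpn22 (1.08-fold) did not. Zfp36l2, Tsc22d3 and Cxcr4 were at log2 ratios of -0.25, -0.40 and -0.44 over all cells, although each was at least 3-fold higher in the cluster than in the reference. In the low dose reference these genes lay below the vehicle cells, with Zfp36l2 at 178 against 369 CPM and Tsc22d3, a glucocorticoid-induced gene, at 171 against 343 CPM. The clustering itself used Tsc22d3 and Cxcr4 and can place high cells on one side, so this contrast between the cluster and its reference was not separable from how the cells were divided.

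A second set of higher genes belonged to the cells rich in Jchain. Cells with at least 50 Jchain UMIs per 10000 numbered 5 of 507 in the vehicle group, 12 of 461 at the low dose and 7 of 382 at the high dose. The shares were 0.986% (0.321 to 2.29), 2.60% (1.35 to 4.50) and 1.83% (0.740 to 3.74), with overlapping intervals. These cells were large, and the 12 low dose cells held 14.0% of all low dose UMIs, while those of the vehicle and high dose held 4.84% and 6.30%. They held 99.1%, 99.8% and 98.6% of the Jchain UMIs of their groups. The lowest of them had 159, 181 and 110 Jchain UMIs per 10000, and the highest cell below the limit had 18.8, 31.4 and 11.2, so that no cell lay near it. All 12 low dose cells and all 5 vehicle cells used Ighm as main heavy chain, while 4 of the 7 high dose cells used Igha and 3 Ighm. Among the low dose cells, 9 used the kappa chain and 3 a lambda chain. The group calls of the Jchain-rich cells rested on fewer hashtag UMIs than those of the other B cells. Their medians were 180, 343 and 75 hashtag UMIs in the vehicle, low dose and high dose groups, against 839.5, 873 and 421 in the others.

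Because so few cells held these transcripts, single cells set the sums. Iglc1, a lambda constant gene, had 2241 UMIs in the vehicle group and 12865 at the low dose, of which 11365 were in 1 cell. Iglc2 had 3113 and 11449 UMIs, of which 4690 and 3944 were in 2 low dose cells. Slpi, a secreted protease inhibitor, had 202 and 1698 UMIs, with 918 in its highest cell. Creld2, a chaperone of the endoplasmic reticulum stress response, and Eaf2, a transcription elongation factor, had 83.8% and 92.9% of their low dose UMIs in the 12 cells. Within the Jchain-rich cells, Creld2 stood at 185 CPM in the vehicle group and 1080 CPM at the low dose, and Slpi at 699 and 4350 CPM, while Jchain itself stood at 31591 and 33039 CPM. Over all genes tested, 4.23% were at least 1.5-fold higher at the low dose. Of the 13 unfolded protein response genes, 10 were (median log2 ratio 1.06), among them Sdf2l1 at 1.57, and in the larger clusters alone the median was 0.50. The list of plasma cell genes had 5 of 6 higher with a median of 1.53, which became -0.33 without the Jchain-rich cells. Prdm1 was an exception, since 29 of its 71 low dose UMIs were in Jchain-rich cells and 29 in the 138 cells of the Pmepa1 cluster. Low dose cell 3 of the Jchain-rich cells carried 184481 hashtag UMIs and 3490 UMIs of 11 neutrophil genes, and vehicle cell 3 carried 1629 of the latter, so these barcodes held more than 1 kind of transcript set.

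**Figure D4:**
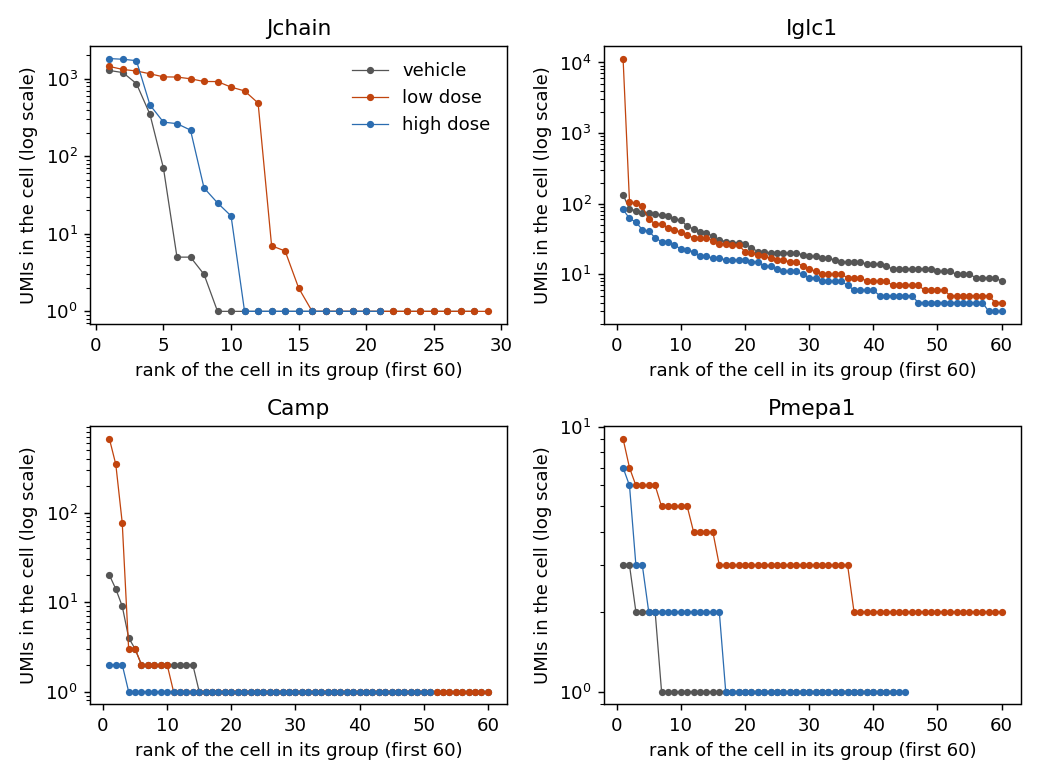
UMIs per cell (vertical, log scale) of Jchain, Iglc1, Camp and Pmepa1 in the 60 highest cells of each group, ordered from the highest (horizontal, rank). Jchain drops after 12 low dose cells, Iglc1 after 1 and Camp after 3, while Pmepa1 declines slowly from 9 UMIs.

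Transcripts of granulocytes and cytotoxic cells made up another set of higher genes, again in few barcodes. Camp and Ltf, proteins of neutrophil granules, had 120 and 55 UMIs in the vehicle group and 1154 and 504 at the low dose. For Camp, 3 low dose barcodes held 666, 345 and 77 UMIs, and for Ngp, another granule protein, 1229, 443 and 198. Gzma, a protease of killer lymphocytes, had 2 vehicle and 119 low dose UMIs, of which 71 and 46 were in 2 barcodes, and Ccl5 had 100 and 68 of its 177 UMIs in 2 barcodes. The 8 higher genes held by the fewest cells for their UMIs were Ctsg, Elane, Prtn3, Ms4a3, Gzma, Jchain, Slpi and Dmkn. Ctsg and Elane are granule proteases of myeloid precursors, and Ctsg had 1566 low dose UMIs in 7 barcodes, with 835 in 1 of them. All 7 also held Ccna2, a cyclin, 6 held Prss57, Mpo and Ms4a3, and 5 held Dmkn and Ccr2. Spata7 had 418 UMIs in 43 low dose cells, with 126, 71, 55 and 54 in its highest cells, and only 2 of the 418 in Jchain-rich cells. The neutrophil list summed to 17994, 42419 and 2820 UMIs in the vehicle, low dose and high dose groups. Of its 11 genes, 7 were at least 1.5-fold higher at the low dose, where 4.23% of all genes were. In the low dose group, 5 barcodes held 81.2% of the UMIs of the list. In the larger clusters the median of the list was -0.19. Without barcodes that held 2 or more UMIs of the defining genes of other leukocytes, Ccl5, Camp and Ngp were no longer higher at the low dose. Their log2 ratios were -0.22, -0.29 and -0.17. Ctsg, Elane, Prtn3 and Ms4a3 were then far lower at the low dose, at -7.55, -3.89, -5.63 and -5.21. In the vehicle group, 3 barcodes had held 180, 153 and 57 of the 396 Ctsg UMIs. The filter thus did not leave out barcodes rich in these genes alike in the 2 groups. Gzma, Ltf, Ly6g and Spata7 then stood at 0.98, 0.39, 0.56 and 0.45.

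The genes lowest at the low dose included those of B cell precursors. Vpreb1, part of the surrogate light chain, had 196 UMIs in 14 vehicle cells, 1 UMI at the low dose and 0 at the high dose, a log2 ratio of -7.71 (-13.0 to -5.21). Igll1, its partner, had 91, 0 and 0 UMIs, and Dntt, the enzyme that adds bases at receptor gene joints, had 96, 5 and 1. Of 7 transitional and immature genes tested, 6 were at least 1.5-fold lower, where 7.48% of all genes were. Among the 6 were the transcription factor Sox4 (253 against 57 UMIs) and Vpreb3 (1660 against 417), while Cd24a was at -0.12. Il7r, the receptor of the growth factor of B cell precursors, had 217, 41 and 14 UMIs in the 3 groups. Of the 41 low dose UMIs, 32 were in the 138 cells of the Pmepa1 cluster, where Il7r stood at 68.9 CPM against 2.79 CPM in the reference, on 3 UMIs, and 11.1 CPM in the vehicle cells of the larger clusters. Akap12, Fam129c, Tifa and Atp1b1 were also among the 12 lowest ratios, between 0.0922-fold and 0.192-fold.

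Some of these low genes led the same cluster. The cluster led by Sox4, Atp1b1, Vpreb1 and Il7r, genes that were kept out of the features, held 65 of 507 vehicle cells, 4 of 461 low dose cells and 1 of 382 high dose cells, or 12.8% (10.0 to 16.0), 0.868% (0.237 to 2.21) and 0.262% (0.00663 to 1.45). It was taken as the cluster with the highest level of Vpreb1, a gene picked for its low ratio, so the choice favored a low share at the low dose. Vpreb1 had a UMI in only 14 of all 507 vehicle cells, so most of the 65 held none of it. Ighd had a UMI in 18.5% of the 65 vehicle cells and in 87.8% of the other vehicle B cells, and their median hashtag count was 463 UMIs against 839 over all vehicle B cells. Without this cluster, 450 genes were at least 1.5-fold lower at the low dose instead of 569. A smaller count of lower genes was not particular to leaving out these cells. Without the Jchain-rich cells alone, 420 genes were lower and 325 higher, and the median log2 ratio was -0.035. Fewer cells of a kind and less RNA per cell cannot be told apart in sums. The count of cells given here cannot tell them apart either, because the cluster was itself formed by expression. Fn1, Ccl6 and Tgfbi, genes of myeloid cells, were among the 12 lowest as well, and 3 vehicle barcodes held 134 of the 137 Fn1 UMIs. Without barcodes with 2 or more UMIs of the defining genes of other leukocytes, Fn1 and Ccl6 were at log2 ratios of 0.71 and 0.56.

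To look past the Pmepa1 cluster and the smaller populations, the 232 low dose and 364 vehicle cells of the larger clusters were compared by themselves. The groups were not trimmed alike. The Pmepa1 cluster left out held 141 of 461 low dose and 6 of 507 vehicle cells, and the Vpreb1 cluster 4 and 65. The ratios below are thus a description of the cells that were kept. Of 5437 genes, 160 (2.94%) were at least 1.5-fold higher and 253 (4.65%) at least 1.5-fold lower. Of the 322 higher and 569 lower genes of the whole comparison, 116 and 215 were past 1.5-fold in the same direction in these cells. That count set no minimum of UMIs in these cells, so it is not a part of the 160 and 253. The cells are also among those of the whole comparison. Bcl2a1b, a survival gene of the BCL2 family, stood at 69.9 against 26.1 CPM, Dtx1, a regulator of Notch signaling used as a marginal zone marker, at 153 against 79.6 CPM, and Fcgr2b, the inhibitory Fc receptor, at 96.0 against 58.1 CPM. Over all B cells the log2 ratios of these genes were 0.64, 0.40 and 0.72. Fkbp5 and Pik3ip1 were low, at 23.3 against 75.7 CPM and 50.3 against 115 CPM, but both were high in the Pmepa1 cluster that was left out (129 and 310 CPM), and over all B cells they were at log2 ratios of -0.52 and -0.10. The cholesterol synthesis list, with 8 genes tested over all B cells, had a median log2 ratio of 0.79 in these cells and 0.36 over all B cells. List medians in the larger clusters set no minimum of UMIs in those cells, so some of their genes may rest on few UMIs. MHC class II genes were mildly low, with 4 of 10 past 1.5-fold over all B cells and a median of -0.56, and -0.27 in the larger clusters. Over all B cells, where 4.23% of genes were higher and 7.48% lower, the FACT subunits and histone chaperones had 1 of 14 genes lower and 0 higher, p53 targets 1 of 7 higher, and NF-kB subunits and feedback genes 0 of 16 past 1.5-fold in either direction. Of 23 interferon-stimulated genes, 3 were higher and 5 lower, with a median log2 ratio of -0.31 and the highest, Isg20, at 1.96.

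**Figure D5:**
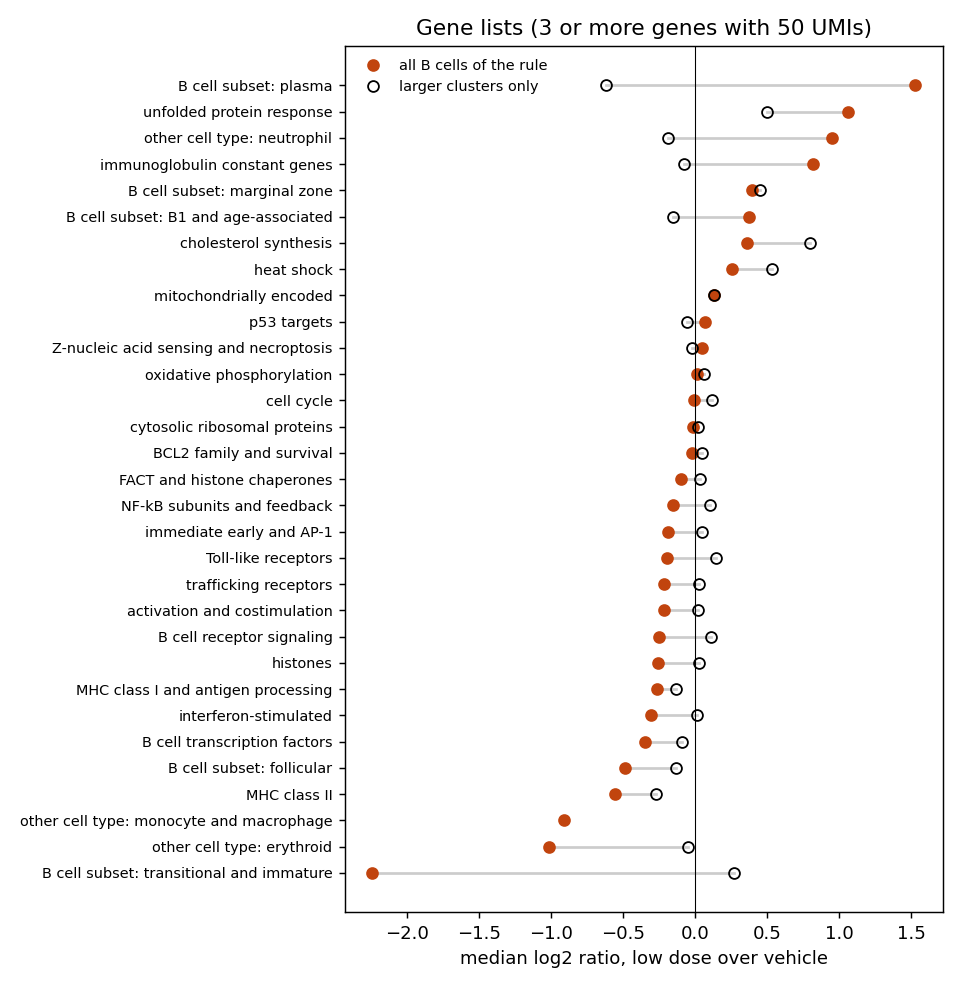
Median log2 ratio, low dose over vehicle (horizontal), for each gene list with at least 3 genes tested, over all B cells (filled) and in the larger clusters alone (open). The plasma cell and neutrophil lists and the transitional and immature list lie far from 0 over all B cells and on the other side of 0 in the larger clusters. The larger clusters leave out, by definition, the clusters led by Jchain, Ngp and Vpreb1.

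In the library labelled spleen, the same rule took 35 vehicle, 37 low dose and 171 high dose B cells. Pmepa1 had 6, 3 and 13 UMIs there and Socs3 16, 4 and 22. The log2 ratio of Pmepa1, low dose over vehicle, was -1.46 with a counting interval of -4.09 to 0.76 that held 0, while it was 2.28 (1.84 to 2.74) in the first library. The higher Pmepa1 level of low dose B cells was thus not seen in these few cells. Other genes went both ways. Vpreb1 had 44, 0 and 0 UMIs, Il7r a log2 ratio of -3.97 (-6.31 to -2.30) and Slpi one of 2.36 (1.57 to 3.25), each in the direction of the first library. For Slpi the cells were of another kind. In the first library 93.5% of its low dose UMIs were in Jchain-rich cells, while Jchain had 0, 1 and 6 UMIs in this library. The low dose barcodes here held 408 UMIs of Ctsg, a gene of myeloid precursors, and the vehicle barcodes 2. Socs3, Ccl5 and Gzma, the last with 46 vehicle and 0 low dose UMIs, went the other way, with intervals that left out 0.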

How the data were processed

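For each library the authors deposited 1 filtered matrix of UMI counts, neither normalized nor annotated with cell types, per the file headers made with cellranger 5.0.0, while the submitters' processing notes name Cell Ranger 6.0.0 and mm10. Single-cell RNA was measured in 2 libraries, each with 3 hashtag groups of 1 pool of 2 mice. The deposited counts were summed over the B cells of a group and scaled to 1000000 UMIs (CPM). Levels carry exact Poisson intervals and ratios exact conditional binomial intervals at 95%. The ratio intervals were tested on sums simulated gene by gene from a Poisson model, without cells. The simulation thus did not cover UMIs that crowd into few cells, as those of Iglc1 did. A gene was tested with at least 50 UMIs over both groups and called past 1.5-fold. Summed counts of 1924180 to 2613060 UMIs set the precision.

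The members, the gene lists and the cluster were chosen with earlier results of these data known. The named genes were the 12 highest and 12 lowest ratios among genes with at least 100 UMIs, the 8 higher genes in the fewest cells for their UMIs, and, from each list, genes past the fold or with the most UMIs. Immunoglobulin variable segments were set apart, and the 3 tested were all higher at the low dose. Genes described for the clusters, among them Socs3, were chosen after their values were seen.

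Cells of the 3 groups were scaled to 10000 UMIs and clustered with scanpy 1.11.5 (2000 variable genes, 20 components, 15 neighbors, Leiden resolution 1, igraph 0.11.9) without 77 genes. This setting was chosen after others had been seen. The larger clusters leave out the Pmepa1 cluster, the clusters led by Jchain, Vpreb1, Ngp, Prtn3, C1qb and Gm26917, Jchain-rich cells and barcodes with at least 2 UMIs of another cell type. The Pmepa1 cluster was left out although it was not small, with 141 low dose cells. HTODemux was that of Seurat 5.3.0 (R 4.3.3). Sums and intervals were computed with scipy 1.17.1 and numpy 2.4.6 in Python 3.11.15. Thinned shares are those expected over all draws without replacement, a choice made after 2 single draws had given different shares. Doublets between hashtags were removed by the hashtag call, and none were called within a hashtag. Promoter sequence came from RefSeq. Alternatives covered the hashtag call, the B cell rule, filters, scaling, minimum, fold and thinning. Some genes are not reported here.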

Additional observations from a re-analysis of the deposited data

Results flagged for a closer look

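Socs3 and Ccl5 pointed in opposite directions in the B cells of the 2 libraries, and the difference between the libraries was not tested. Socs3 had a log2 ratio, low dose over vehicle, of 1.87 (1.45 to 2.31) in the library labelled liver and -2.46 (-4.50 to -0.83) in the library labelled spleen, where it had 16 UMIs in 35 vehicle cells and 4 in 37 low dose cells. Ccl5 had a log2 ratio of 4.05 (3.14 to 5.14) in the first library and -6.55 (-11.9 to -4.02) in the second, where it had 68 vehicle UMIs, 65 of them in 1 barcode, and 1 low dose UMI. Without barcodes with 2 or more UMIs of another cell type, 29 vehicle and 32 low dose cells remained in the library labelled spleen. Socs3 then had 4 and 2 UMIs (33.5 and 15.9 CPM) and Ccl5 had 1 and 1 (8.38 and 7.94 CPM), so that the opposite direction of Ccl5 rested on the barcodes left out and Socs3 was at very few UMIs. In the library labelled liver, 2 low dose barcodes held 100 and 68 of the 177 Ccl5 UMIs.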

How the results depend on the processing

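Each group was 1 pool of 2 mice, so intervals cover counting error only, and the same vehicle cells served both doses. No paired analysis was possible because each group was 1 sample. Sums were set by few cells for many genes. Of 18 alternatives, 12 kept the number of higher genes within 1.5 times and 12 that of lower genes. The numbers at least 1.5-fold higher and lower were 621 and 996 with a minimum of 20 UMIs, 188 and 301 with 100 UMIs, 1493 and 1901 with no minimum, 108 and 109 at a fold of 2, and 160 and 253 in the larger clusters. Averaging CPM over single cells gave 488 higher genes, and cells with an Ighd UMI gave 227 lower genes.

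The values given here lay on the other side of 0 from the main comparison, where they were past 1.5-fold. Main list medians were 1.53 for plasma, 0.82 for immunoglobulin constant, 0.95 for neutrophil and -2.24 for transitional and immature genes. They were -0.91 for monocyte and macrophage and -1.02 for erythroid genes. Of the erythroid UMIs, 5 barcodes held 93.8% in the vehicle group and 89.1% at the low dose. With cells that held Ighd, log2 ratios were -0.41 for Camp, -0.056 for Ltf, -0.66 for Slpi, -0.48 for Iglc1, -0.55 for Elane and -0.45 for Jchain, and list medians -0.43 for plasma, -0.30 for immunoglobulin constant, -0.15 for neutrophil and 3.32 for erythroid genes. With at least 6 UMIs of the B cell genes they were -0.47 for Camp, -0.22 for Ltf, -0.74 for Ngp, -2.19 for Ctsg, -5.36 for Elane, -2.48 for Prtn3, -1.77 for Ms4a3 and -0.19 for the neutrophil list. Without barcodes with 2 or more UMIs of another cell type they were -0.22 for Ccl5, -0.29 for Camp, -0.17 for Ngp, 0.71 for Fn1, 0.56 for Ccl6, -7.55 for Ctsg, -3.89 for Elane, -5.63 for Prtn3, -5.21 for Ms4a3 and 2.90 for the erythroid list. Without Jchain-rich cells they were -0.047 for Slpi, -0.47 for Eaf2, -0.81 for Iglc1 and -0.13 for Jchain, with list medians of -0.33 for plasma, -0.44 for immunoglobulin constant and 2.56 for erythroid genes. In the larger clusters they were -0.41 for Camp, -0.19 for Ltf, -1.49 for Slpi, -0.33 for Ngp, -0.18 for Iglc1, 1.51 for Fn1, 0.51 for Ccl6, 0.45 for Atp1b1, 1.17 for Sox4, -0.49 for Elane, -0.00069 for Prtn3 and -1.07 for Jchain. The list medians there were 0.27 for transitional and immature, -0.62 for plasma, -0.075 for immunoglobulin constant and -0.19 for neutrophil genes. Of the single genes in the larger clusters, all but Iglc1 had counting intervals that held 0. Low dose and vehicle UMIs were 4 and 2 for Fn1, 2 and 2 for Ccl6, 1 and 2 for Elane and 11 and 7 for Sox4. The larger clusters leave out the clusters led by Jchain, Vpreb1, Ngp and Prtn3 by definition. HTODemux calls gave -0.69 for Iglc1 and 2.54 for the erythroid list, and averaging over single cells gave -0.050 for the neutrophil and 0.038 for the monocyte and macrophage list. The cause was not tested.

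Without thinning, the vehicle, low dose and high dose shares of cells with a Pmepa1 UMI were 8.48%, 27.5% and 11.8%, and those of Socs3 were 5.33%, 25.8% and 7.07%. Thinned to 1000 UMIs, Pmepa1 was at 13.0% and Socs3 at 10.6% of low dose cells. Single random draws of the thinning to 500 UMIs were unstable for rare transcripts, since 2 draws left Pmepa1 in 1 and in 7 vehicle cells (0.197% and 1.38%) and in 6 and 13 high dose cells, but in 32 and 33 low dose cells. The Pmepa1 cluster held 0.197% of vehicle and 1.57% of high dose cells when all genes were used, 0.197% and 1.83% without ribosomal, immunoglobulin and mitochondrial genes alone, 0%, 26.0% and 1.31% of the 3 groups when these were left out as well, 3.66% of high dose cells without only the 30 genes first listed, and 4.71% at resolution 1.5. All clustering alternatives and those that leave out clusters were chosen after seeing the data.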
